A study of Rattus norvegicus with 6 samples.

Results

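The genes described here are the simple keratins Krt7, Krt8, Krt18 and Krt19, the mesenchymal filament gene Vim and the epithelial adhesion gene Epcam, in cultured rat brain microvascular endothelial cells (rBMECs) exposed to homocysteine (Hcy). They are 6 of the 33566 genes in the deposited count table and were found there by gene name. They were chosen because Krt7 was known to be high in these libraries and some epithelial markers to be lower after Hcy, so the values below describe the genes and no p-value is given for them. Of the 6 genes, 3 had at least 10 counts summed over all libraries and entered the test across 14603 genes, and the other 3 had no library above 3 counts.

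RNA was sequenced from 6 libraries, 3 from cells given Hcy and 3 from cells given the solvent, water (Veh). Both groups were primary cells of SD rats 18 to 22 days old, digested from cerebral cortex by the labels (forebrain by the study's methods), purified in a selection medium and treated after 1 passage, and no allele or sort marker is named. Hcy was applied for 24 h at a labelled dose of 100 μM, although the treatment protocol also names a 50 μM solution. The series design calls the replicates biological, but how animals or cultures were pooled is not stated, so p-values measure the spread between these samples only.

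Intermediate filaments are the most varied of the cytoskeletal polymers, and their subunits mark cell lineages. Keratins form filaments only as pairs of a type I and a type II chain. In simple epithelia the type II chains Krt7 and Krt8 pair with the type I chains Krt18 and Krt19. Vimentin forms filaments by itself and is the usual filament protein of endothelial and mesenchymal cells. Epcam is a surface adhesion protein that is used to identify epithelial cells.

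The data bear out the name of this gene group in part. Vim and Krt7 were abundant in every library, whereas Krt8, Krt18, Krt19 and Epcam were at or near the limit of detection in both groups. In all 3 Hcy libraries Krt7 lay below, and Vim above, the whole range of the Veh libraries. Alongside the Krt7 reads there were almost none for a simple type I partner.

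Promoter stretches are shown for the 4 of the 6 genes present in the RefSeq promoter table of build GRCr8, to set the start region of the abundant Vim beside those of the nearly silent Krt8, Krt18 and Epcam. Krt7 and Krt19 had no entry. Each line gives 50 bases 5′ to 3′ on the gene's own strand, upstream of the annotated start. The lines cover different distances, 134 to 85 bases upstream for Krt8, 72 to 23 for Krt18, 112 to 63 for Vim and 150 to 101 for Epcam. Where a TATAA lay on the gene's own strand within 250 bases upstream, the line was placed around it. Capitals mark matches, on either strand, to TATAA (the core of a TATA box), to GGGCGG (the core of a GC box), to TGANTCA (the letters of an AP-1 site) and to CACCTG (an E-box), and overlapping matches are joined.
Krt8, chr7:135010424-135010473, minus strand: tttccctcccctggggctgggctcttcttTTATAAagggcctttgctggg
Krt18, chr7:135036096-135036145, plus strand: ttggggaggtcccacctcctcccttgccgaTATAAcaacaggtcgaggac
Vim, chr17:81577149-81577198, plus strand: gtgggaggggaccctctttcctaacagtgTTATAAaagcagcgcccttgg
Epcam, chr6:12649779-12649828, minus strand: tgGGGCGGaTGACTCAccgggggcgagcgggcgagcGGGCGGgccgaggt

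The stretches of Krt8, Krt18 and Vim were placed to hold a TATAA, so its presence in them was fixed in advance. It lay 104 to 100 bases upstream of the annotated start in Krt8, 42 to 38 in Krt18 and 82 to 78 in Vim. Epcam had no TATAA in its 250 bases. Over the full 250 bases upstream of the start, TATAA was present in 24.0% of 33469 RefSeq promoters. GGGCGG was present in 30.5% of these promoters and in the windows of Krt18, Vim and Epcam. TGANTCA was present in 6.34% of promoters and, among the 4 genes, in Epcam. CACCTG was present in 15.9% of promoters and in the windows of Krt8 and Epcam. Epcam had 33 CpG dinucleotides in its window, Krt18 had 15, Vim had 11 and Krt8 had 8, against a median of 5 over all promoters. These are matches of letters in a window and were not related to the expression values.

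The 6 libraries held 14024997 to 16764584 counts, and normalization factors by the TMM method lay between 0.977 and 1.02. A level of 3 counts, equal to 0.179 to 0.214 CPM (counts scaled to library size), was taken as the floor of detection. The floor and all intervals on shares cover counting error only. Veh replicate 3 stood apart from the other 5 libraries on the first principal component, at -23.3 against -4.3 to 10.9, so results that rest on it are also given without it. The groups were compared gene by gene with edgeR's quasi-likelihood test, and every adjusted p below is a Benjamini-Hochberg value over all genes tested. Of these, 341 (2.34%) reached an adjusted p of 0.05 or less, and 71 (0.486%) also differed by a log2 fold change of 1 or more in either direction.

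Levels per gene length were compared first, in TPM (counts per length, scaled to the same sum in each library) calculated from the deposited counts and gene lengths. Vim had a mean level of 3691 ± 71.8 TPM in Hcy and 2738 ± 43.4 TPM in Veh (SD, n = 3 each) and ranked 28th of all genes by mean TPM. Krt7 followed with 354 ± 9.23 TPM in Hcy and 529 ± 31.2 TPM in Veh and ranked 370th. Krt8 was far below, at 0.157 ± 0.172 TPM in Hcy and 0.199 ± 0.123 TPM in Veh. The order of Vim, Krt7 and the 4 others held in each of the 6 libraries, with no overlap between Vim and Krt7 or between Krt7 and Krt8. Among Krt8, Krt18, Krt19 and Epcam the levels overlapped and set no order.

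**Figure D1:**
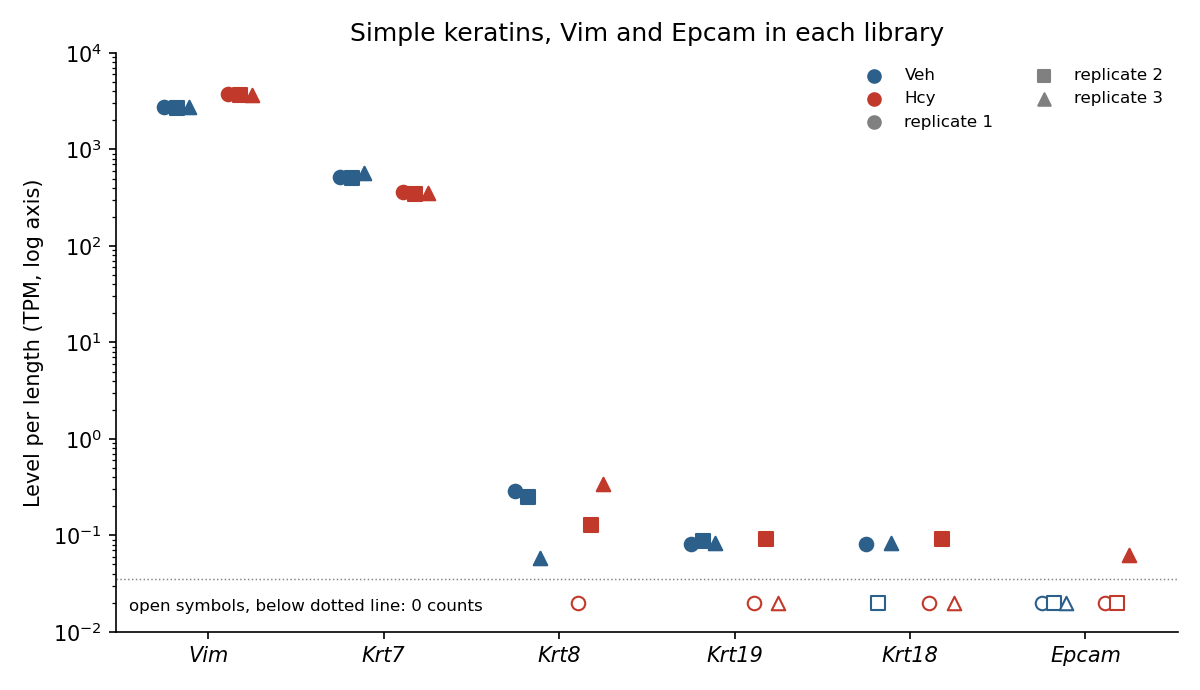
Level per length (TPM, log axis) of each of the 6 genes in each library, with Veh in blue and Hcy in red and the symbol giving the replicate number. Vim and Krt7 lie orders of magnitude above Krt8, Krt19, Krt18 and Epcam, and open symbols below the dotted line mark libraries with 0 counts.

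Krt7 (ENSRNOG00000008057) lies on the plus strand of chromosome 7 at 143059764 to 143075907, as listed in the count table, which names no genome build. It encodes a type II keratin of glandular and ductal epithelia. Its counts were 5789, 5696 and 6542 in Hcy replicates 1, 2 and 3 and 9520, 8585 and 10142 in Veh replicates 1, 2 and 3. In TPM these were 364.5, 346.6 and 351.4 in Hcy and 520.0, 503.6 and 563.9 in Veh. The 3 Hcy libraries lay close together and below every Veh library, and Veh replicate 3 was the highest. On the TMM-normalized scale Krt7 was at 396 ± 17.3 CPM in Hcy and 605 ± 84.7 CPM in Veh (SD, n = 3 each). The log2 fold change was -0.61 (SE 0.12), or a level 34.5% lower in Hcy. Without Veh replicate 3 the log2 fold change was -0.49. In bulk RNA, fewer Krt7-expressing cells and less Krt7 RNA per cell cannot be told apart.

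Krt8 (ENSRNOG00000009779), the type II keratin found in nearly all simple epithelia, lies on the minus strand of the same chromosome at 143596511 to 143603803. It had 0, 2 and 6 counts in Hcy and 5, 4 and 1 in Veh, 18 in all. The groups overlapped, and Hcy replicate 3 had more counts than any Veh library. The log2 fold change was -0.28 (SE 0.59). It moved between -1.5 without Hcy replicate 3 and 0.24 without Hcy replicate 1, so no direction can be given at this depth.

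The type I partners were at the floor. Krt18 (ENSRNOG00000047393), the usual partner of Krt8, lies on the plus strand of chromosome 7 at 143629455 to 143633131 and had 0, 1 and 0 counts in Hcy and 1, 0 and 1 in Veh. Krt19 (ENSRNOG00000014233), a small type I keratin of ducts and mesothelium, is listed on the minus strand of chromosome 10 at 88055841 to 88060561 and had 0, 1 and 0 counts in Hcy and 1, 1 and 1 in Veh. Neither gene had a library above 3 counts, and no difference between the groups was detectable. The listed Krt19 interval falls wholly within that of Krt14 on the same strand, with 0 Krt19 bases outside it. How reads on shared bases or on near-identical copies were counted is not given in the sources used here, so the Krt19, Krt18 and Krt8 counts are uncertain. Krt14 itself, a type I keratin of basal epithelium, had 0, 1 and 3 counts in Hcy and 1, 4 and 1 in Veh.

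Set against Krt7, these partners made up a very small part of the simple keratin reads. Krt18 and Krt19 together gave 7 of the 46299 counts on the 4 simple keratins, 0.0151% (95% exact Clopper-Pearson interval 0.00608 to 0.0312%). The numbers were 2 of 18037 counts in Hcy and 5 of 28262 in Veh. Per length, the type I share of the 4 keratins averaged 0.0219% over the 6 libraries. The TPM of Krt7 was 97.8 to 142 times the summed TPM of all named type I keratins in Hcy and 197 to 244 times in Veh.

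Epcam (ENSRNOG00000015667) lies on the minus strand of chromosome 6 at 11281964 to 11298216. It had 1 count in Hcy replicate 3 and 0 in the other 5 libraries, and no comparison between the groups can be made at this depth.

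Vim (ENSRNOG00000018087) lies on the plus strand of chromosome 17 at 80882666 to 80891212. Its counts were 53892, 53757 and 61327 in Hcy and 45465, 41208 and 44721 in Veh. In TPM these were 3773, 3638 and 3663 in Hcy and 2762, 2688 and 2765 in Veh. Both groups were tight on this scale, and every Hcy library was above every Veh library. In CPM the levels were 3713 ± 138 in Hcy and 2806 ± 253 in Veh (SD, n = 3 each), with Veh replicate 3 the nearest to the Hcy libraries. The log2 fold change was 0.40 (SE 0.08), a level 32.3% higher in Hcy, and 0.48 without Veh replicate 3. Vim took 0.362 to 0.384% of all counts in the Hcy libraries and 0.267 to 0.302% in the Veh libraries.

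**Figure D2:**
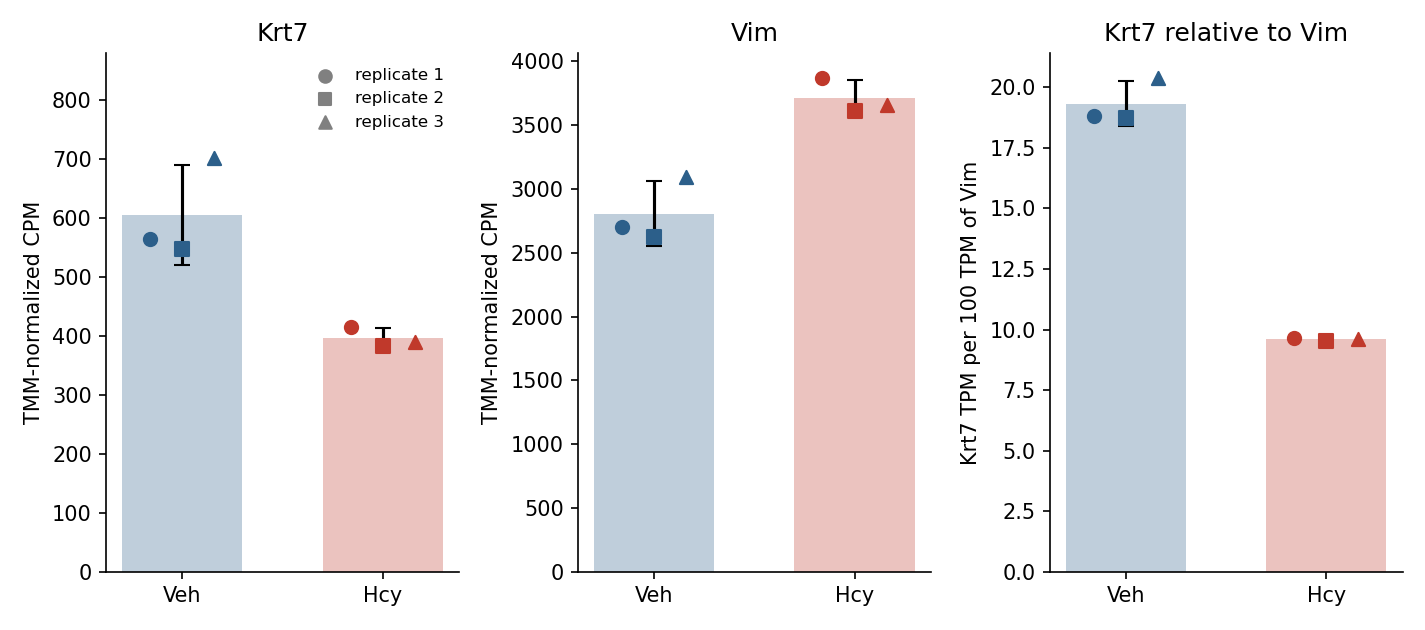
TMM-normalized CPM of Krt7 and of Vim and the Krt7 level per 100 TPM of Vim in each library, where bars are group means, error bars are the SD of 3 libraries and symbols give the replicate number. Krt7 was lower and Vim higher in all 3 Hcy libraries, and the ratio lay at 9.53 to 9.66 in Hcy and 18.7 to 20.4 in Veh.

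The ratio of both genes separated the groups more widely than either level, as Krt7 was lower and Vim higher in the same libraries. For every 100 TPM of Vim there were 9.66, 9.53 and 9.59 TPM of Krt7 in Hcy replicates 1, 2 and 3. The values were 18.8, 18.7 and 20.4 in Veh. The mean ratio was 9.59 ± 0.067 in Hcy and 19.3 ± 0.928 in Veh (SD, n = 3 each). The ratio uses TPM within a library and so does not depend on the scaling between libraries.

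Of the 6 genes, 3 were tested and 0 passed both the adjusted p and the fold threshold by edgeR's quasi-likelihood test. The share over all genes tested was 0.486% (0.253% higher and 0.233% lower in Hcy). By DESeq2 0 of the 6 genes passed both, beside 94 of 14603 genes. By edgeR 2 of the 6 were under an unadjusted p of 0.05, beside 13.4% of all genes tested. The same 2, Krt7 and Vim, were past the adjusted threshold alone, beside 2.34% of all genes tested (1.32% higher and 1.01% lower). The groups did not overlap for 1 gene that was higher and 1 that was lower in Hcy, beside 10.8% and 9.27% of all genes tested (20.1% in both directions). The genes were picked on this contrast, so nothing is read from these counts. Other fits on the full set use the same 6 libraries, and nothing is read from them either. Both genes were past the adjusted threshold in all 7 of these fits. With 1 library left out, 0 were past it without Hcy replicate 1, 2 or 3, 1 without Veh replicate 1 or 2, and 2 without Veh replicate 3. Over all genes tested, 80 of 14375, 95 of 14325 and 81 of 14297 were past it without Hcy replicate 1, 2 or 3. Without Veh replicate 1, 2 or 3 the numbers were 151 of 14351, 123 of 14339 and 957 of 14352 (6.67%).

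**Figure D3:**
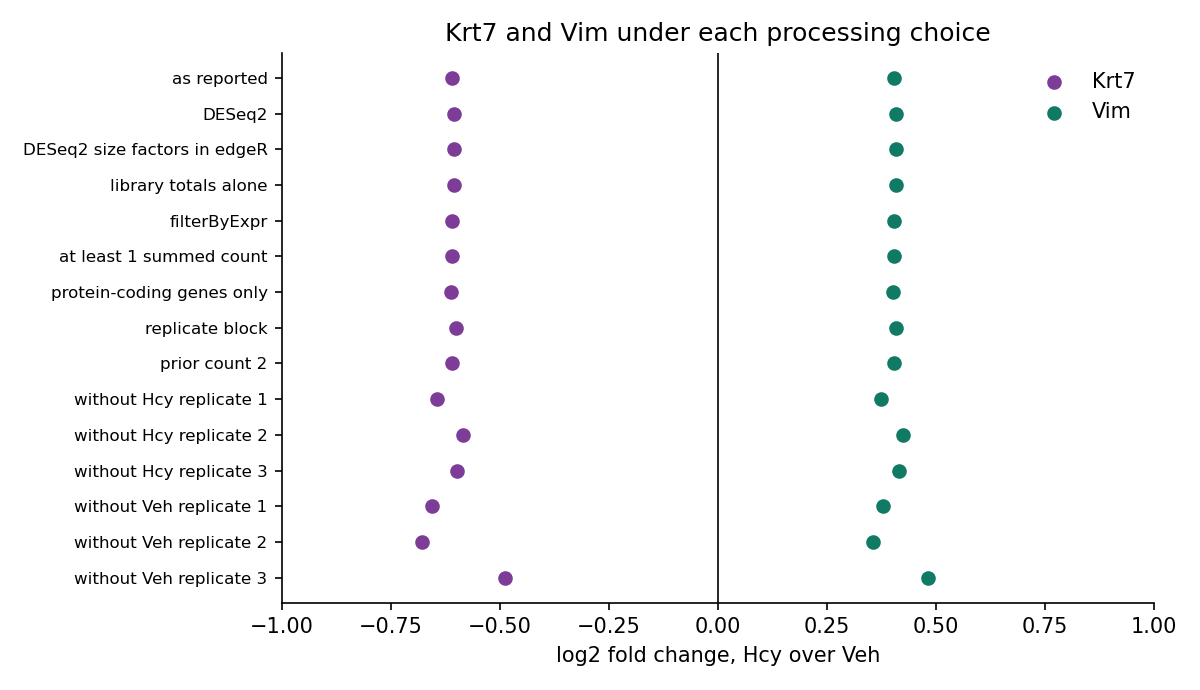
Log2 fold change of Krt7 and of Vim (Hcy over Veh) under each processing choice, 1 row for each. Krt7 stayed between -0.68 and -0.49 and Vim between 0.36 and 0.48.

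The remaining keratins were nearly silent. The table lists 47 genes named Krt with a number, 26 of type I and 21 of type II. Krt7 took 97.7, 96.9 and 97.3% of all keratin counts in Hcy and 97.7, 98.4 and 98.7% in Veh, and the 46 other keratins together had 999 counts over the 6 libraries. Krt80, a type II keratin, was the next most abundant, with 96, 127 and 120 counts in Hcy and 170, 102 and 94 in Veh. Its level was 4.54 ± 0.593 TPM in Hcy and 4.61 ± 1.46 TPM in Veh (SD, n = 3 each), and the groups overlapped. Krt10, a type I keratin of differentiated epidermis, came next at 0.938 ± 0.252 and 0.600 ± 0.254 TPM. Of the 43 keratins outside the 4 simple ones, 9 were tested and 0 had an adjusted p of at most 0.05 by edgeR's quasi-likelihood test, 0 by DESeq2, and 1 had an unadjusted p under 0.05 by edgeR, beside 13.4% of all genes tested. The gene was Krt20, a type I keratin of gut and bladder lining, with 1, 4 and 4 counts in Hcy and 0, 0 and 1 in Veh, named after its values were seen. No keratin of these 43 was under that p by DESeq2, with filterByExpr, with at least 1 summed count, with the replicate block or without any 1 library other than Veh replicate 3. Krt20 had too few counts to be tested with filterByExpr, without any 1 Hcy library or without Veh replicate 3, so its loss there was fixed in advance. The keratin under that p without Veh replicate 3 was therefore another gene. Of these 43, 35 had no library above the floor and 14 had no count. Their median log2 fold change was 0.59 against -0.02 over all genes tested, which rests on 9 genes of few counts.

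Krt7 lies in the type II keratin cluster, and nearly all reads on that cluster's keratins were on Krt7. This stretch was chosen after the values were seen. From Krt80 to Krt18 the table lists 22 genes named Krt. Kb23, with 4 counts, and Kb15, with 0, lie in the same stretch and were not counted. Of the 21 besides Krt7, 19 had no library above 3 counts, the exceptions being Krt80 and Krt8, and 7 had no count. Krt80 ends 43.7 kb below the start of Krt7. On the other side Krt83, a hair keratin, starts 3.09 kb past the end of Krt7 and had 1 count in all 6 libraries. Krt8 and Krt18, which are neighbours 25.7 kb apart, lie at the far end, and the start of Krt7 and the end of Krt18 are 573 kb apart.

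**Figure D4:**
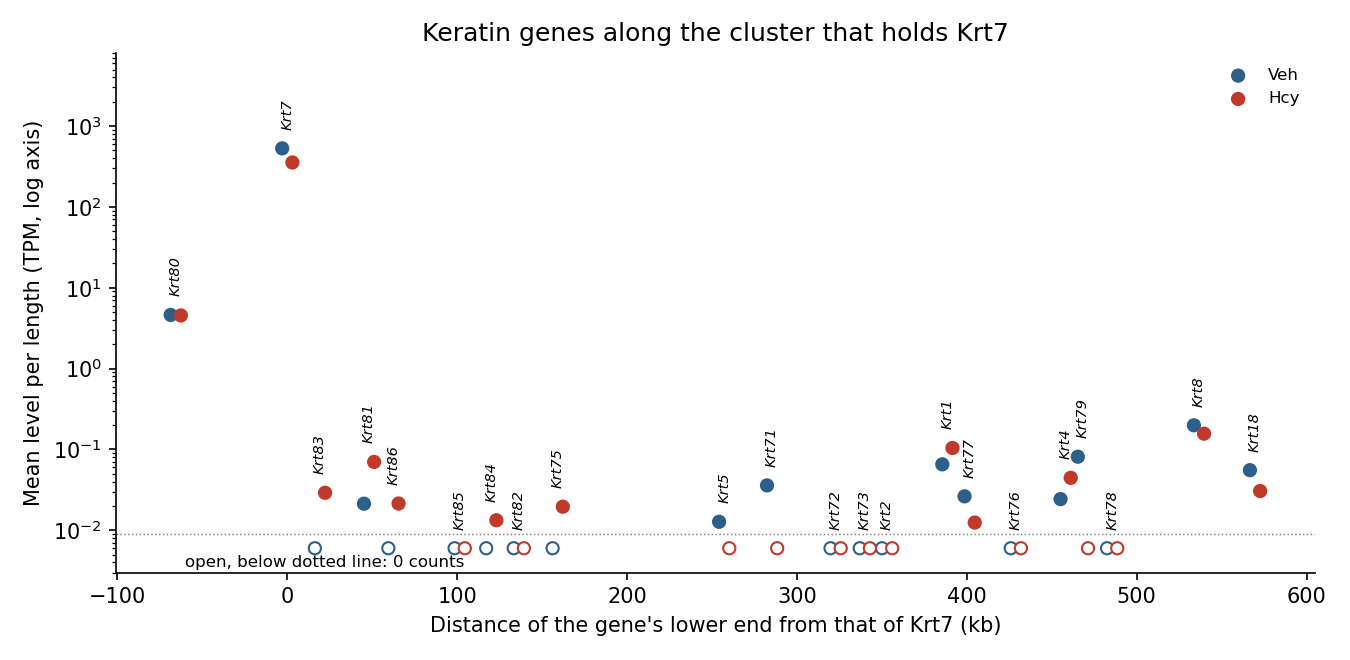
Mean level per length (TPM, log axis) of the 22 Krt genes of the cluster against the distance of each gene from Krt7 (kb), Veh in blue and Hcy in red, with open symbols for 0 counts. Krt7 and, lower, Krt80 stand above all other keratins of the stretch in both groups.

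Among the 16 other intermediate filament genes found in the table, 12 were tested. Lmnb1, a lamin of the nuclear envelope, rose from 12.7 ± 1.82 to 18.7 ± 1.32 TPM (SD, n = 3 each) with a log2 fold change of 0.54 (SE 0.09, adjusted p = 0.0446 by edgeR's quasi-likelihood test). This call was lost in 6 of 13 settings, in which the adjusted p reached 0.186, among them the settings without Hcy replicate 1, 2 or 3 and without Veh replicate 1 or 2. Lmna, the most abundant filament gene after Vim and Krt7 among the genes listed here, was at 264 ± 4.43 TPM in Hcy and 310 ± 8.63 TPM in Veh, a log2 fold change of -0.26 (SE 0.06) with an adjusted p of 0.125 by edgeR and 0.0454 by DESeq2. Nes, the partner of vimentin in progenitor and endothelial cells, was at 60.0 ± 6.61 TPM in Hcy and 51.0 ± 2.34 TPM in Veh, with groups that overlapped in CPM and were 53.9 against 53.7 TPM at their nearest. Nefl, Nefm, Ina and Bfsp2, filament genes of neurons and lens, were at or under the floor in every library. Nefh and Prph, also of neurons, and Bfsp1, also of lens, lay above it in at least 1 library. Nefh had 5 to 16 counts and Bfsp1 14 to 24, and the groups overlapped for both. Prph had 3, 3 and 4 counts in Hcy and 8, 5 and 15 in Veh. Its log2 fold change was -1.43 (SE 0.42, adjusted p = 0.352 by edgeR's quasi-likelihood test). The count past the adjusted threshold was 3 by DESeq2 and 3 by edgeR without Veh replicate 3, with Lmna lower and Lmnb1 and Synm higher both times, beside 4.19% and 6.67% of all genes tested. The median log2 fold change of the list was -0.05.

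Genes that anchor or regulate filaments included the plaque and linker proteins of desmosomes. Of 25 listed, 23 were in the table and 22 were tested. The count past the adjusted threshold was 0 by edgeR's quasi-likelihood test and 1 by DESeq2, and 4 had an unadjusted p under 0.05 by edgeR, beside 2.34%, 4.19% and 13.4% of all genes tested. Without Veh replicate 3 it was 2 by edgeR, Dsp and Macf1, beside 6.67%. The gene called by DESeq2 was Dsp, the desmosomal plaque protein that ties keratins to the junction, at 52.6 ± 3.24 TPM in Hcy and 38.3 ± 8.30 TPM in Veh. Its log2 fold change was 0.45 (SE 0.13), with an adjusted p of 0.0777 by edgeR and 0.00318 by DESeq2. Plec, the linker that binds vimentin to other structures, was at 34.7 ± 2.59 and 37.2 ± 8.53 TPM, and its groups overlapped. Dsp and Plec were chosen after their values were seen. The most abundant genes of the list, Ywhae and Ywhaz, which encode 14-3-3 proteins that bind phosphorylated keratins, were at 1260 and 800 TPM in Hcy and 1159 and 751 TPM in Veh, with adjusted p of 0.616 and 0.678 by edgeR.

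**Figure D5:**
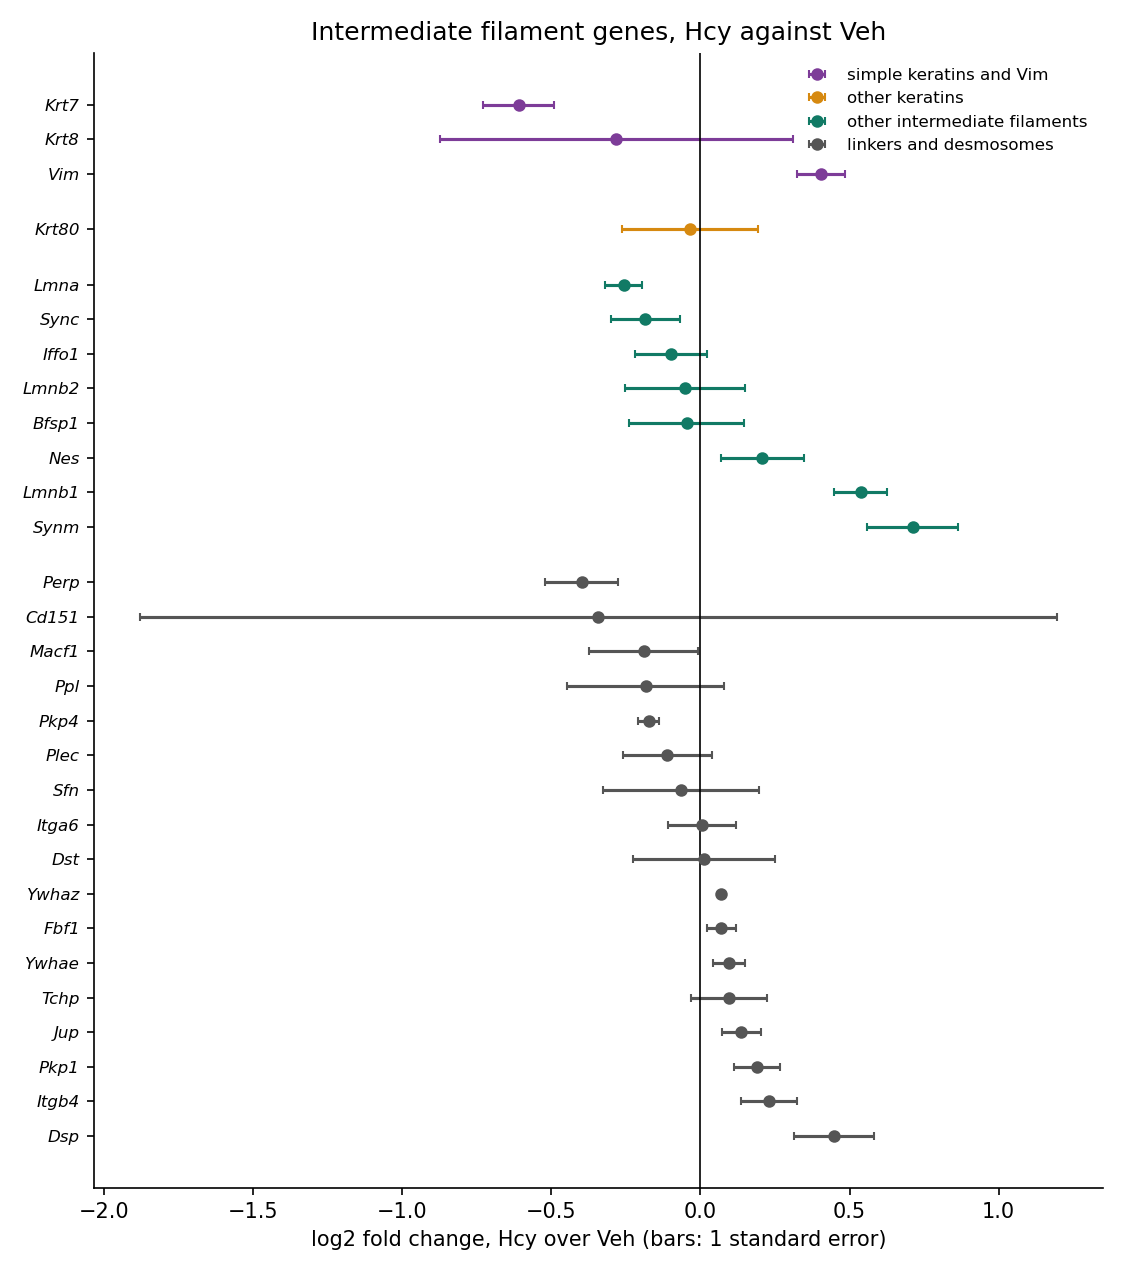
Log2 fold change (Hcy over Veh, bars 1 standard error) of Krt7, Krt8 and Vim, and of the other keratins, filament genes and linkers with a mean of at least 1 CPM. Krt7 at -0.61 and Vim at 0.40 lie on opposite sides of 0, and Krt80 at -0.04 lies between them.

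Other epithelial markers were part of the reason for choosing these genes and are described without a test. Of 36 listed, 22 entered the fit, with 12 higher and 10 lower in Hcy and a median log2 fold change of 0.14. Lsr, the receptor that organises tricellular junctions, had 208, 188 and 255 counts in Hcy and 420, 338 and 351 in Veh, a log2 fold change of -0.73 (SE 0.11). Cldn4, a tight junction claudin, had 11, 14 and 8 counts in Hcy and 42, 51 and 38 in Veh, a log2 fold change of -1.92 (SE 0.28). The groups did not overlap for either gene. Like Krt7, both were lower in every Hcy library, but the list as a whole was not: its summed level was 183 to 193 TPM in Hcy and 149 to 204 TPM in Veh. Lama5, a laminin chain of basement membranes and the most abundant gene of the list, was at 48.6 ± 5.02 TPM in Hcy and 55.1 ± 14.4 TPM in Veh, and its groups overlapped. Spint2, an epithelial protease inhibitor, was at 33.6 ± 4.22 TPM in Hcy and 24.9 ± 0.793 TPM in Veh, with all 3 Hcy libraries above the Veh libraries. Cdh1, the epithelial cadherin, had 2, 3 and 7 counts in Hcy and 0, 0 and 8 in Veh. The regulators Esrp1, Grhl2, Ovol2 and Ehf and the claudins Cldn3, Cldn6, Cldn7 and Cldn8 were at or under the floor in every library. Related regulators of the same list lay above it in at least 1 library, Esrp2 with 181 to 352 counts, Grhl1 with 4 to 30, Grhl3 with 0 to 5, Elf3 with 3 to 10 and Ovol1 with 1 to 7.

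Mesenchymal genes other than Vim were read from a list of 28, of which 27 were in the table and 26 were tested. By edgeR 0 were higher and 3 lower past the adjusted threshold, beside 1.32% and 1.01% of all genes tested, and the median log2 fold change was -0.02. By DESeq2 1 was higher, Tgfb1, and 3 were lower, beside 4.19% of all genes in either direction. Tagln, an actin-binding protein of contractile cells, fell from 1548 ± 78.6 to 858 ± 9.35 TPM (SD, n = 3 each), a log2 fold change of -0.88 (SE 0.07, adjusted p = 0.000801 by edgeR's quasi-likelihood test). Cd44, the hyaluronan receptor, fell by 0.91 on the log2 scale (SE 0.04, adjusted p = 0.00235 by edgeR). Acta2, smooth muscle actin, fell from 194 to 127 TPM, a log2 fold change of -0.64 (SE 0.15, adjusted p = 0.0248 by edgeR). Tagln and Cd44 were past the threshold in 13 of 13 settings. Acta2 was lost in 4 of them, without Hcy replicate 1, 2 or 3 or Veh replicate 1, where its adjusted p reached 0.146. The 2 most abundant genes of the list, Sparc and Fn1, were at 6291 and 3276 TPM in Hcy and 5370 and 3522 TPM in Veh, with adjusted p of 0.249 and 0.706 by edgeR. Without Hcy replicate 1, 2 or 3 or Veh replicate 1 the list had 2 genes past the threshold, beside 80, 95, 81 and 151 over all genes. Without Veh replicate 3 the list had 5, when Sparc and Tgfb1 were higher in Hcy, beside 6.67% of all genes in that fit.

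The labelled cell type was checked against its markers. Of 27 endothelial markers 25 were in the table, and Pecam1 and Abcb1a were not found there by name. The summed level of the 25 was 7290 to 7550 TPM in Hcy and 6120 to 7660 TPM in Veh. Emcn and Cdh5, which mark endothelium, were at 1014 and 900 TPM in Hcy and 913 and 818 TPM in Veh. Cldn5, the main claudin of the brain endothelium, had 0 counts in every library. Of the 24 endothelial markers tested, 0 were past the adjusted threshold by edgeR's quasi-likelihood test, 5 by DESeq2 and 7 by edgeR without Veh replicate 3, and 10 had an unadjusted p under 0.05 by edgeR. Over all genes tested the shares were 2.34%, 4.19% and 6.67%, and 13.4% for the unadjusted p.

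Markers of other cell types that could carry Krt7 or Vim were given the same treatment. Of 14 pericyte and smooth muscle markers, 13 of them above the test minimum, 3 were past the adjusted threshold by edgeR, all lower in Hcy, beside 1.01% of all genes tested. They were Tagln, Acta2 and Cnn1, of which Acta2 was lost as above. Cnn1, a calponin of smooth muscle, fell from 26.1 to 10.1 TPM, a log2 fold change of -1.39 (adjusted p = 0.00177 by edgeR's quasi-likelihood test). The summed level of the list was 992 to 1000 TPM in Hcy and 1680 to 1880 TPM in Veh, a sum made up mostly of Tagln and Acta2. It was lower in the same libraries as Krt7, and its part in the Krt7 difference was not tested. The list was mixed, with 7 genes higher and 6 lower in Hcy and a median log2 fold change of 0.44 against -0.02 over all genes tested. The defining mural genes Myh11, Pdgfrb and Rgs5 were at 0.331, 0.881 and 1.06 TPM in Hcy and 0.329, 0.515 and 0.428 TPM in Veh.

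Of 12 choroid plexus epithelium markers, 3 were tested and 8 were at or under the floor in every library, among them Ttr, Otx2 and Kcnj13. Their summed level was 3.61 to 4.55 TPM in Hcy and 1.73 to 3.59 TPM in Veh, most of it Clic6, an ion channel protein, at 3.12 and 1.96 TPM. Aqp1, a water channel, was at 0.433 TPM in Hcy and 0.170 TPM in Veh. Of 14 mesothelial and arachnoid markers, 7 were tested and 7 were at or under the floor, Wt1, Upk3b, Bnc1, Lrrn4 and Krt19 among them. Their summed level was 18.5 to 20.5 TPM in Hcy and 16.6 to 23.1 TPM in Veh, and the groups overlapped. Most of it was Foxc1, a transcription factor also found in other cells, at 16.3 and 16.6 TPM, while Msln, mesothelin, was at 1.93 and 1.94 TPM. Of 9 fibroblast markers 6 were tested, with a summed level of 16.5 to 23.7 TPM in Hcy and 22.8 to 28.7 TPM in Veh, and Col1a1 and Col3a1, its most abundant genes, were at 15.2 and 4.16 TPM in Hcy and 21.4 and 2.97 TPM in Veh. Of 13 glial and neuronal markers 7 were tested, and Mog and Tubb3 led them with 11.6 and 6.56 TPM in Hcy and 11.4 and 5.20 TPM in Veh. Of 8 leukocyte markers 3 were tested, led by Cd68 and Aif1 at 2.22 and 0.347 TPM in Hcy and 1.32 and 0.343 TPM in Veh, with Ptprc at 0 counts. In these 5 lists 0 genes were past the adjusted threshold by edgeR's quasi-likelihood test and 0 by DESeq2. An unadjusted p under 0.05 by edgeR was found for 1 choroid plexus, 0 mesothelial, 2 fibroblast, 1 glial or neuronal and 0 leukocyte markers, beside 13.4% of all genes tested.

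Finally, the genes whose levels followed Krt7 and Vim most closely were listed, by Pearson correlation of log2 CPM over the 6 libraries among 8249 genes with a mean of at least 10 CPM. The 6 points share 2 groups and their libraries' scaling, so these values are a description. Closest to Krt7 were Akr1b1, an aldose reductase, Procr, the endothelial protein C receptor, and Tspan17, a tetraspanin, at r = 0.997, 0.996 and 0.995. Procr had a mean of 391 TPM in Hcy and 595 TPM in Veh, near the level of Krt7 in both groups. Closest to Vim were Pgm2, a sugar phosphate mutase, Yars1, the tyrosyl-tRNA synthetase, and Isyna1, the inositol phosphate synthase, at r = 0.996, 0.996 and 0.995. There were 107 genes with r of at least 0.95 to Krt7 and 142 to Vim. Krt7 and Vim themselves had r = -0.73 and a Spearman rho of -0.54 over the 6 libraries.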

How the data were processed

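The authors deposited raw read counts per gene, without normalization, for 6 libraries, with gene positions and lengths. The submitters' processing notes name fastp, HISAT2 2.2.1, StringTie 2.2.3, Cufflinks, featureCounts 2.0.6, DESeq2 1.42.0 and the build mRatBN7.2. The table itself names no build and its positions reach 282724300 on chromosome 1, so they are given as listed. Strand setting and handling of multi-mapping reads are not given in the sources used here. A table of the authors' own comparison, which holds fold changes, p-values and normalized values, was not used.

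Analyses were run with edgeR 4.0.16 and DESeq2 1.42.0 (R 4.3.3, limma 3.58.1). Genes reaching 10 summed counts were scaled by TMM and tested with edgeR's quasi-likelihood test, condition as the only term, with Benjamini-Hochberg adjustment over 14603 genes. The fold threshold was the study's. SE values come from log2 CPM with a prior count of 2, over the 3 libraries of each group. TPM used the deposited lengths. The balance of keratin types was expressed as a type I share because Krt18 and Krt19 were at 0 in some libraries.

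The genes and lists were chosen with earlier results of these data known. Named from each list were genes with an adjusted p of at most 0.05, the 2 highest by TPM, defining markers at or under the floor and the 3 genes most correlated with Krt7 or Vim. Genes named outside this rule, such as Cdh1, Esrp2, Grhl1, Grhl3, Elf3, Ovol1, Tgfb1, Macf1, Synm, Nefh, Prph, Bfsp1, Kb23, Kb15, Dsp, Plec, Krt14, Krt83, Mfsd2a, Slco1a4, Myh11, Pdgfrb and Rgs5, were chosen after their values were seen. Alternatives were DESeq2, its size factors, library totals, other count minimums, protein-coding genes only, the replicate number as a block, another prior count and leaving out each library. The tests were checked on simulated counts with planted changes larger than those of Krt7 and Vim and with no outlying library. That check does not cover smaller changes or a library like Veh replicate 3.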

Additional observations from a re-analysis of the deposited data

How the results depend on the processing

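Krt7 stayed lower (log2 fold change -0.68 to -0.49) and Vim higher (0.36 to 0.48) in all 14 alternative settings. The number of the 6 genes with an adjusted p of at most 0.05 was 2, beside 341 over all genes tested. It was 0 to 2 when 1 library was left out, beside 80 to 957. Krt8 ranged from -1.5 to 0.24 when 1 library was left out, and it had too few counts for the filterByExpr fit. The correlation of Krt7 with Akr1b1 was 0.886 by Spearman and 0.994 to 0.998 with 1 library left out. For Vim and Pgm2 it was 0.886 and 0.995 to 0.997.

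Over all genes, 71 were past both thresholds, 94 with DESeq2, 109 with at least 1 summed count and 39 to 112 with 1 library left out. Leaving out Hcy replicate 1, 2 or 3 or Veh replicate 2 gave 39, 39, 46 and 47, and leaving out Veh replicate 3 gave 112. By adjusted p alone there were 341, with DESeq2 612 and with 1 library left out 80 to 957. The last was without Veh replicate 3, and the values without Hcy replicate 1, 2 or 3 and Veh replicate 1 or 2 were 80, 95, 81, 151 and 123. The cause of these shifts was not tested. The median log2 fold change of all genes stayed between -0.02 and -0.0031.

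Same-numbered libraries had correlations of 0.0779, 0.406 and 0.0516 in their deviations from the group means. Differently numbered libraries had correlations of -0.435 to 0.28. These few values do not settle whether the numbers mark pairs, and the fit reported above did not treat them as pairs. In the fit that took replicate number as a block, 82 genes were past both thresholds and 298 past the adjusted p alone. Of the 6 genes 2 were past the adjusted p alone, with log2 fold changes of -0.60 for Krt7, -0.38 for Krt8 and 0.41 for Vim. With the block Lmnb1 was lost (adjusted p = 0.0584 by edgeR), and Col1a1 and Robo4 passed the adjusted threshold.

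At 14024997 counts or more per library, Krt18, Krt19 and Epcam could not be compared between the groups.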
